A study of Mus musculus with 8 samples.

Results

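The OCT4 binding sites described here lie in and around 10 genes that encode core factors of the naive pluripotency network: Pou5f1, Sox2, Nanog, Dppa3, Klf4, Klf2, Klf5, Esrrb, Tfcp2l1 and Prdm14. A site was taken for a gene when its called region touched the gene's span or the 100 kb on either side of it, in the mouse genome build GRCm38. The 10 genes were listed by name, out of 49997 genes in the RefSeq table of that build, of which 21887 are protein-coding and lie on placed chromosomes. In all, 62 of the 20955 called sites of the study met this rule, each counted a single time, and each of the 10 genes had at least 1 of them in some library. A site in some library is common among genes. In hmC-Seal replicate 2 alone, a library described below, 64.1% of all protein-coding genes had a site in a window of this kind.

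The cells were male mouse embryonic stem cells of the line E14, labelled with the strain C57BL/6J and grown without feeder cells. The medium was N2B27 with leukemia inhibitory factor and 2i, the pair of kinase inhibitors that holds such cells in the naive state. No other treatment was given. OCT4 was profiled by CUT&RUN, in which an antibody guides a nuclease to the bound factor and the short DNA fragments it cuts free are sequenced. The fragments went into 3 kinds of library with 2 OCT4 replicates each: conventional libraries made from 5 ng of DNA, which do not report cytosine modification; bisulfite libraries, of which only methylated reads were kept; and hmC-Seal libraries made from 30 ng, which enrich fragments with 5-hydroxymethylcytosine. The 2 IgG samples, 1 conventional and 1 bisulfite, served as background for peak calling and have no site list of their own. There is no hmC-Seal IgG sample, and which IgG sample the hmC-Seal sites were called against is not stated, so the background behind their fold enrichment is of unknown origin. Whether the replicates came from separate cultures is not stated, so a p-value here measures the spread between libraries.

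Pluripotency is held by a set of transcription factors that bind each other's genes as well as their own. OCT4, the product of Pou5f1, often binds DNA together with SOX2, each protein contacting its own stretch of a joint sequence, and many of the joint sequences lie in enhancers well away from the promoter. A window limited to the promoter therefore misses much of the known regulation of these genes, for example the enhancer cluster far past Sox2 or the enhancers past Klf4. Methylcytosine at such enhancers can be oxidised to 5-hydroxymethylcytosine by TET enzymes, which are active in embryonic stem cells.

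Sites were counted as the authors' caller, MACS 2, listed them in each library separately: 1 site per summit, the point of highest signal, at a q-value threshold of 0.05. Values for both libraries of a preparation are given with replicate 1 before replicate 2. At the 10 loci the conventional libraries had 0 and 6 sites, the bisulfite libraries 10 and 11, and the hmC-Seal libraries 20 and 15. Both hmC-Seal libraries thus had more sites than both bisulfite libraries, and these more than both conventional libraries. The separation of hmC-Seal from bisulfite was lost at −log10 q of at least 3, with 19 and 8 against 7 and 11 sites, and with sites of at least 5 fragments, with 20 and 9 against 10 and 11. The 6 conventional sites all lay before Pou5f1, so that the other 9 loci had no conventional site at all. Summits that share the start and end of a called region can be joined into 1 region, which leaves 0 and 2 conventional, 10 and 8 bisulfite and 19 and 15 hmC-Seal regions, in the same order.

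The mean was 17.5 ± 3.54 sites (SD, n = 2 libraries) in hmC-Seal, 10.5 ± 0.707 (SD, n = 2) in bisulfite and 3 ± 4.24 (SD, n = 2) in conventional libraries. The difference between hmC-Seal and conventional was 14.5 sites (two-sided exact permutation test, p = 0.333), that between bisulfite and conventional 7.5 (the same exact test, p = 0.333), and that between hmC-Seal and bisulfite 7.0 (the same exact test, p = 0.333). A p of 0.333 is the smallest that 2 libraries against 2 can give, so no difference here could pass a threshold of 0.05. The order of the 3 means is that of the mean list lengths, although within bisulfite and within hmC-Seal the longer list had fewer sites at the loci. The lists hold 227 and 265 sites for conventional, 2797 and 2077 for bisulfite and 3974 and 11615 for hmC-Seal libraries. As a percentage of each list, the sites at the loci made up 0 and 2.26% of the conventional, 0.358% and 0.530% of the bisulfite and 0.503% and 0.129% of the hmC-Seal entries, and all 3 differences then changed sign. They also changed sign when every list was limited to its 227 sites of highest −log10 q, which left 0 and 6 conventional, 1 and 4 bisulfite and 1 and 0 hmC-Seal sites. With joined summits the percentages were 0 and 0.901%, 0.367% and 0.403%, and 0.523% and 0.132%, and the 3 differences were still reversed but smaller. With joined lists cut to equal length, which left 0 and 2, 1 and 3, and 1 and 0 regions, bisulfite minus conventional kept its direction and the other 2 were reversed.

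**Figure D1:**
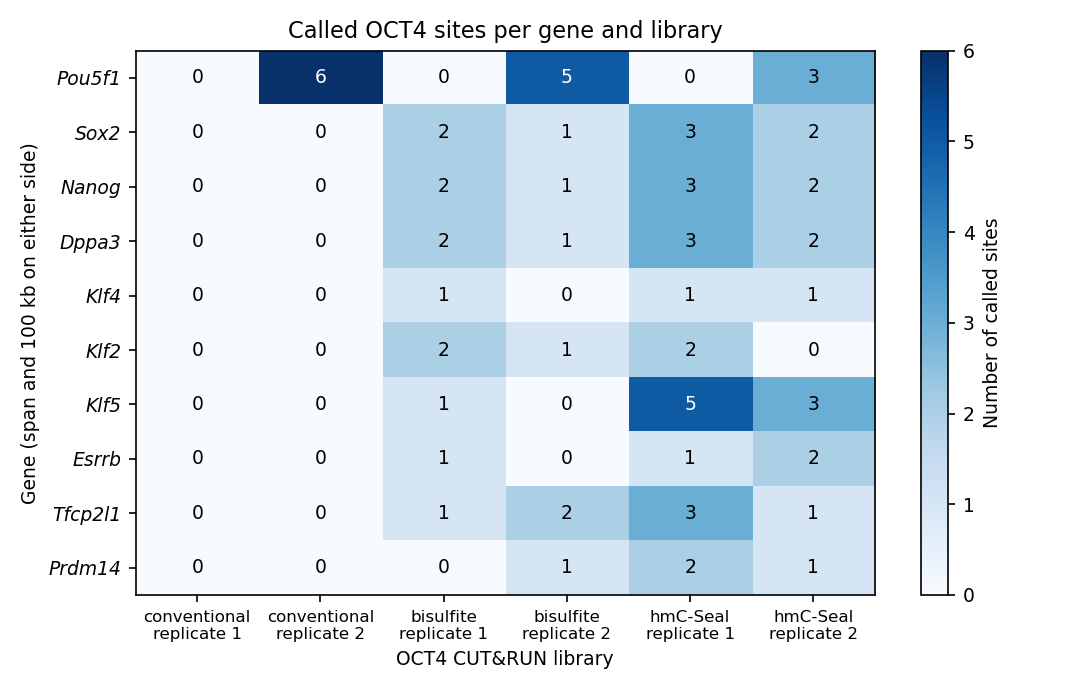
Number of called OCT4 sites for each of the 10 genes (down) in each of the 6 libraries (across), with darker blue for more sites and the number in each cell. Conventional replicate 1 is at 0 throughout, and the 6 sites of conventional replicate 2 all belong to Pou5f1; Nanog and Dppa3 show equal numbers because their windows hold the same 8 sites.

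In the bisulfite libraries 8 and 7 of the 10 genes had a site, where 21.8% and 17.3% of all protein-coding genes had 1 in a window of the same kind. Of the 10 genes, 9 had a site in hmC-Seal replicate 1, against 30.6% of protein-coding genes, and 9 in hmC-Seal replicate 2, against 64.1%. In the conventional libraries 0 and 1 of the 10 had a site, against 2.03% and 2.32%. Nanog and Dppa3 are counted separately in each library, although their windows hold the same 8 sites. Among the bisulfite and hmC-Seal libraries, the count in hmC-Seal replicate 2 is the nearest to its background, and the list of that library reaches most genes. The genes without a site were Pou5f1 and Prdm14 in bisulfite replicate 1, Klf4, Klf5 and Esrrb in bisulfite replicate 2, Pou5f1 in hmC-Seal replicate 1 and Klf2 in hmC-Seal replicate 2.

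Both bisulfite libraries had a site at 5 genes, Sox2, Nanog, Dppa3, Klf2 and Tfcp2l1, where 10.9% of protein-coding genes had a site in both. Both hmC-Seal libraries had a site at 8 genes, all but Pou5f1 and Klf2, against 23.3%. Nanog and Dppa3 share all their sites but are counted separately here and in the medians that follow. No bisulfite site in the Nanog window lay nearer than 82803 bp to the start of Nanog. Summed over the 6 libraries, the median number of sites in a window was 7.5 for the 10 genes and 1 for all protein-coding genes, although the median window was slightly shorter for the 10, at 206242 bp against 217169 bp. For hmC-Seal these medians were 2.5 and 0 with replicate 1 and 2 and 1 with replicate 2, and for either bisulfite library they were 1 and 0.

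**Figure D2:**
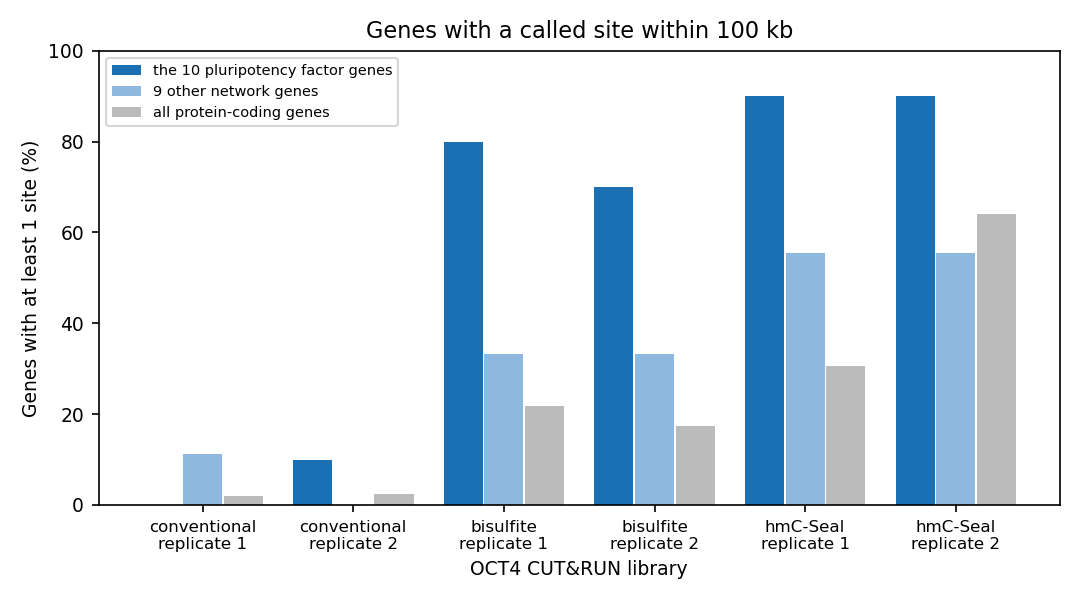
Percentage of genes with at least 1 called site within 100 kb of the gene span in each of the 6 libraries, for the 10 pluripotency factor genes (dark blue), 9 other genes of the pluripotency network (light blue) and all 21887 protein-coding genes (grey). The dark blue bars stand above the grey ones in both bisulfite and both hmC-Seal libraries, by the least in hmC-Seal replicate 2, where 64.1% of all genes have a site.

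Pou5f1, which encodes OCT4 itself, had 14 sites, in 7 called regions: 6 in conventional replicate 2, 5 in bisulfite replicate 2, 3 in hmC-Seal replicate 2 and 0 in each replicate 1 library. This is the highest number of summits among the 10 genes but not of regions, of which Klf5 had 9 and Sox2, Nanog and Dppa3 had 8 each. Of these, 13 lay between 1542 and 2613 bp before the start of the gene, in the stretches chr17:35503344-35503820 and chr17:35503955-35504539, both inside the span of the long non-coding RNA gene Gm32362. Fold enrichment is the caller's ratio of the signal at the summit to the local IgG background, and rank is the place of a site by −log10 q in its own list, tied sites sharing the better place. The farthest of these summits, 2613 bp before the start, had the highest fold enrichment of any site at the 10 loci, 22.9, and rank 4 of 265 in conventional replicate 2.

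In bisulfite replicate 2 the summit of highest −log10 q at Pou5f1 lay 1761 bp before the start, with a fold enrichment of 8.17 and rank 118 of 2077. In hmC-Seal replicate 2 it lay 1939 bp before the start, with a fold enrichment of 5.72 and rank 2569 of 11615. The summits within each stretch were spread over 351 and 453 bp, the widest spread of any stretch at the 10 loci called in more than 1 library. A wider window added a single site, chr17:35476045-35476132, which lay 29946 bp before the start, nearest to the histocompatibility gene H2-Q10, in hmC-Seal replicate 2 alone. Its fold enrichment was 3.46, and it rested on 3 fragments, a number estimated for each summit from its deposited values. Nothing was called in the 100 kb past the gene.

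The sites at Pou5f1 often lay where the IgG background was raised. The local background at a summit can be computed from the estimated fragments and the fold enrichment and set against the background of the whole genome in the same library, where the estimate gives a single number of fragments. At Pou5f1 it was above 2 times the genome background at 10 of 12 such sites, with a median of 7.13 times and a highest value of 15.9 times, at the bisulfite summit 2601 bp before the start. At the other 9 loci it was above 2 times at 7 of 42 sites, with a highest value of 48.5 times at the Klf5 site 31099 bp after the start in hmC-Seal replicate 2, and with 3.45 and 6.34 times at the Klf2 place before the gene. Over all 6 lists it was so at 4554 of 18005 sites, 25.3%. By library it was so at Pou5f1 at 4 of 5 sites in conventional replicate 2, against 16.5% of that list. In bisulfite replicate 2 it was so at 5 of 5, against 36.0%, and in hmC-Seal replicate 2 at 1 of 2, against 20.1%. The site of highest fold enrichment, 2613 bp before the start in conventional replicate 2, was itself at the genome background, with a ratio of 1.00 and 34 fragments. The higher background and the limitation to replicate 2 libraries thus stand side by side at this gene, and the part of either in the sites was not tested.

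**Figure D3:**
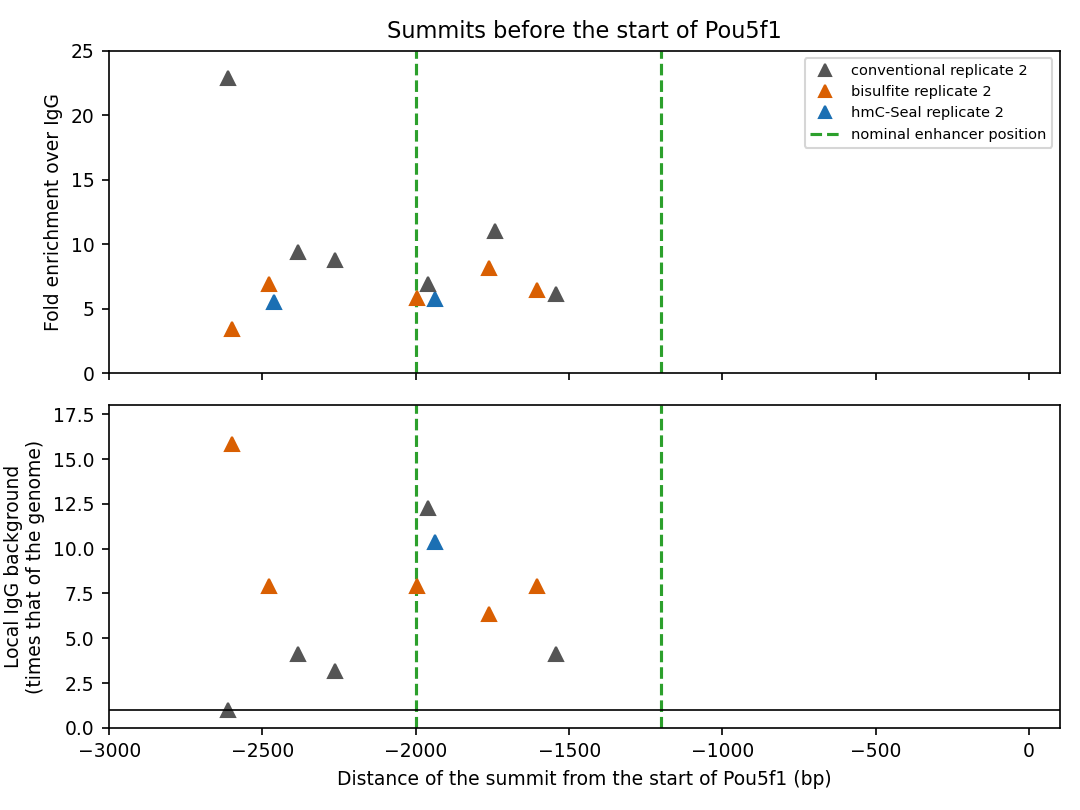
Fold enrichment over IgG (top) and local IgG background in multiples of the genome background (bottom) for the 13 summits nearest to Pou5f1, against their distance in bp from its start; triangles are replicate 2 libraries, coloured by preparation, green dashed lines are nominal enhancer positions, and the black line marks a ratio of 1. The lower panel shows summits with a single possible number of fragments, all but 1 of them above the line, and the exception is the summit with a fold enrichment of 22.9.

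Sox2 encodes the partner that binds DNA beside OCT4. Its 8 sites, 2 and 1 of them bisulfite and 3 and 2 hmC-Seal, fell in 3 places, all past the gene. At chr3:34653989-34654120, inside the span of the non-coding RNA gene Sox2ot, the 4 summits of both bisulfite and both hmC-Seal libraries fell 4061 to 4065 bp after the start of Sox2, within 4 bp of each other. This was the tightest agreement of summits in any shared stretch at the 10 loci. The site of hmC-Seal replicate 1 ranked 186 of 3974 and rested on 36 fragments, the bisulfite sites on 16 and 18, and that of hmC-Seal replicate 2 on 5.

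A further place near Sox2, chr3:34668549-34668665, also inside Sox2ot, lay 18616 to 18657 bp after the start and was called in 3 libraries. Bisulfite replicate 1 gave it a fold enrichment of 6.75 on 13 fragments, and the hmC-Seal libraries gave 7.29 on 13 and 6.05 on 6 fragments. The last, chr3:34745341-34745542, lay 95409 bp after the start, outside annotated genes, in hmC-Seal replicate 1 only, with a fold enrichment of 8.19 and rank 1601. It sits short of the Sox2 control region, the distal enhancer cluster that drives Sox2 in embryonic stem cells. At nominally 100 to 110 kb after the start, that cluster is mostly past the window, and hmC-Seal replicate 1 had 2 sites there. These were chr3:34756686-34756783, with a fold enrichment of 6.27, and chr3:34758000-34758132, with 5.12, and they begin 4225 and 5539 bp past the window. They are thus in none of the counts of sites per gene or library made with the window of 100 kb. Only the comparison with known elements and the alternative window of 200 kb include them.

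Nanog, a homeodomain factor that holds cells in the naive state, had a site at its own start in hmC-Seal replicate 1 only. Its sequence is shown because this is the only called region at the 10 loci that lies inside a RefSeq promoter sequence of GRCm38.p6, and because it holds the joint OCT4 and SOX2 sequence. The region, chr6:122707372-122707510, is 139 bases long, spans the start of Nanog at position 122707489, and is given on the plus strand, 5′ to 3′. Capitals mark a match, on the minus strand, to the SOX sequence CATTGT, 1 base of any kind and the octamer core ATGCAA.
Nanog promoter region: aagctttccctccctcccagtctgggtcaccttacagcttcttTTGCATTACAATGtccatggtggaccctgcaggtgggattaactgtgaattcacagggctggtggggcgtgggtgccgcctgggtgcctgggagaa

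The centre of the capitals lies 8 bp from the summit, which is 60 bp before the start of Nanog. The region had a fold enrichment of 5.75, rank 3010 of 3974 and 10 fragments, so it is in the lower part of its list. It contains 2 CpG dinucleotides and 56.8% G and C. The joint sequence, looked for on both strands after the values were seen, occurs in 4 of 32851 RefSeq promoter windows of 300 bases, 0.0122%, and 2 of these 4 are the overlapping windows of Nanog. CATTGT alone occurs in 12.6% of the windows and ATGCAA alone in 10.7%, and both are parts of the joint sequence. The full octamer ATGCAAAT, which contains ATGCAA, occurs in 1.74% and has no match in the printed region.

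Promoter windows were at hand for 7 of the 10 genes, 10 windows in all, with none for Dppa3, Klf5 and Prdm14. CATTGT matched in windows of Esrrb, Nanog and Pou5f1, ATGCAA in windows of Esrrb, Nanog and Sox2, and ATGCAAAT in none. A match describes the letters of the window and not an occupied site.

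Dppa3, which encodes the maternal factor STELLA, lies before Nanog on chromosome 6, near enough that the windows of both genes hold the same 8 sites, 2 and 1 bisulfite and 3 and 2 hmC-Seal. The leading place is chr6:122624610-122624740, outside annotated genes, with summits 1738 to 1761 bp before the start of Dppa3 and 82803 to 82826 bp before that of Nanog. Here the bisulfite libraries gave a fold enrichment of 13.2 and 11.5, and the hmC-Seal libraries 14.7 and 7.87. The sites ranked 168 of 2797 and 151 of 2077 among bisulfite and 335 of 3974 and 1628 of 11615 among hmC-Seal sites, within the top 14.0% of each list. This stretch and the one 4 kb after the start of Sox2 were the only 2 at the 10 loci called in 4 libraries.

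The other sites of this pair of genes were weaker. The region chr6:122608574-122608677 lies inside the span of Gdf3, a gene for a growth factor of the TGF-beta family, 17772 and 17802 bp before the start of Dppa3. It had a fold enrichment of 3.94 in bisulfite replicate 1 and 6.97 in hmC-Seal replicate 1. Between both genes, chr6:122687395-122687486 was called in hmC-Seal replicate 2 alone, 20058 bp before Nanog, with a fold enrichment of 3.89 on 5 fragments.

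The Krüppel-like factors Klf2, Klf4 and Klf5 overlap in function in holding the naive state. Klf4 had 1 site in bisulfite replicate 1 and 1 in either hmC-Seal library, and none within 5 kb. The place shared by both replicate 1 libraries, chr4:55464377-55464538, is 68002 and 68037 bp after the start, in the direction of transcription, with a fold enrichment of 4.86 in bisulfite replicate 1 and 9.81 in hmC-Seal replicate 1. It ranked 1085 of 3974 in hmC-Seal replicate 1 but 2584 of 2797 in bisulfite replicate 1, near the end of that list, and lies at the far edge of the enhancers E1 to E3. The site of hmC-Seal replicate 2, 25299 bp after the start, had 3 fragments and a fold enrichment of 3.46.

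Klf2 had 2 and 1 bisulfite sites and 2 and 0 hmC-Seal sites. Beside the place called 2776 to 2857 bp before its start, which ranked 3433 of 3974 in hmC-Seal replicate 1 and 2460 of 2797 and 1154 of 2077 among bisulfite sites, the wide window held chr8:72334433-72334589. There the summits of bisulfite replicate 1 and hmC-Seal replicate 1, 15487 and 15468 bp after the start, had a fold enrichment of 6.75 and 8.83, above the 3.92 to 4.47 of the nearer place. The protein-coding gene nearest to it is Eps15l1, which encodes an endocytic adaptor, not Klf2.

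Klf5 had 9 sites, 1 in bisulfite replicate 1 and 5 and 3 in the hmC-Seal libraries, and no pair of them overlapped. All lay outside annotated genes, between 19982 and 55536 bp from the start and mostly past the gene. The site of highest −log10 q was chr14:99354178-99354298, 55536 bp after the start in hmC-Seal replicate 1, with a fold enrichment of 7.82 and rank 1993. A bisulfite site at chr14:99324119-99324208 and an hmC-Seal site at chr14:99324789-99324965 came close but did not touch, so Klf5 had no stretch called in more than 1 library.

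Esrrb encodes an orphan nuclear receptor that can stand in for other factors of the network. It had 1 site in bisulfite replicate 1 and 1 and 2 in the hmC-Seal libraries, none of them shared. Its site of highest −log10 q, chr12:86471011-86471137 in hmC-Seal replicate 1, lay inside the gene, 109979 bp after the start, with a fold enrichment of 8.32 and rank 1695 of 3974. Of the rest, 1 lay inside the neighbouring gene Gpatch2l, 97214 bp before the start, and 1 lay 240639 bp after the start, nearest to Vash1.

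Tfcp2l1, a factor of the grainyhead-like family that sustains self-renewal in 2i medium, was the only gene of the 10 with 3 shared stretches, which held all 7 of its sites. At chr1:118625458-118625680, before the gene, the fold enrichment was 5.80 and 8.03 with bisulfite and 13.4 with hmC-Seal replicate 1, with summits 2317 to 2433 bp before the start. At chr1:118648114-118648275, inside the gene, it was 7.59 in bisulfite replicate 2 and 10.4 in hmC-Seal replicate 1, with summits 20264 and 20254 bp after the start. The last, chr1:118776625-118776739, was called in both hmC-Seal libraries and in no bisulfite library, with a fold enrichment of 8.59 and 7.79, and was the only shared stretch at the 10 loci found in a single preparation. It lies 148752 and 148764 bp after the start, and its nearest protein-coding gene is Gli2, a transcription factor of Hedgehog signalling.

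Prdm14, which represses de novo methyltransferase genes in naive cells, had 1 site in bisulfite replicate 2 and 2 and 1 in the hmC-Seal libraries. The shared place, chr1:13084764-13085077, lay 42144 to 42202 bp after the start, outside annotated genes, with a fold enrichment of 6.72 in bisulfite replicate 2 and 8.83 in hmC-Seal replicate 1. The site of hmC-Seal replicate 2, 82675 bp after the start, had a fold enrichment of 3.46 on 3 fragments.

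**Figure D4:**
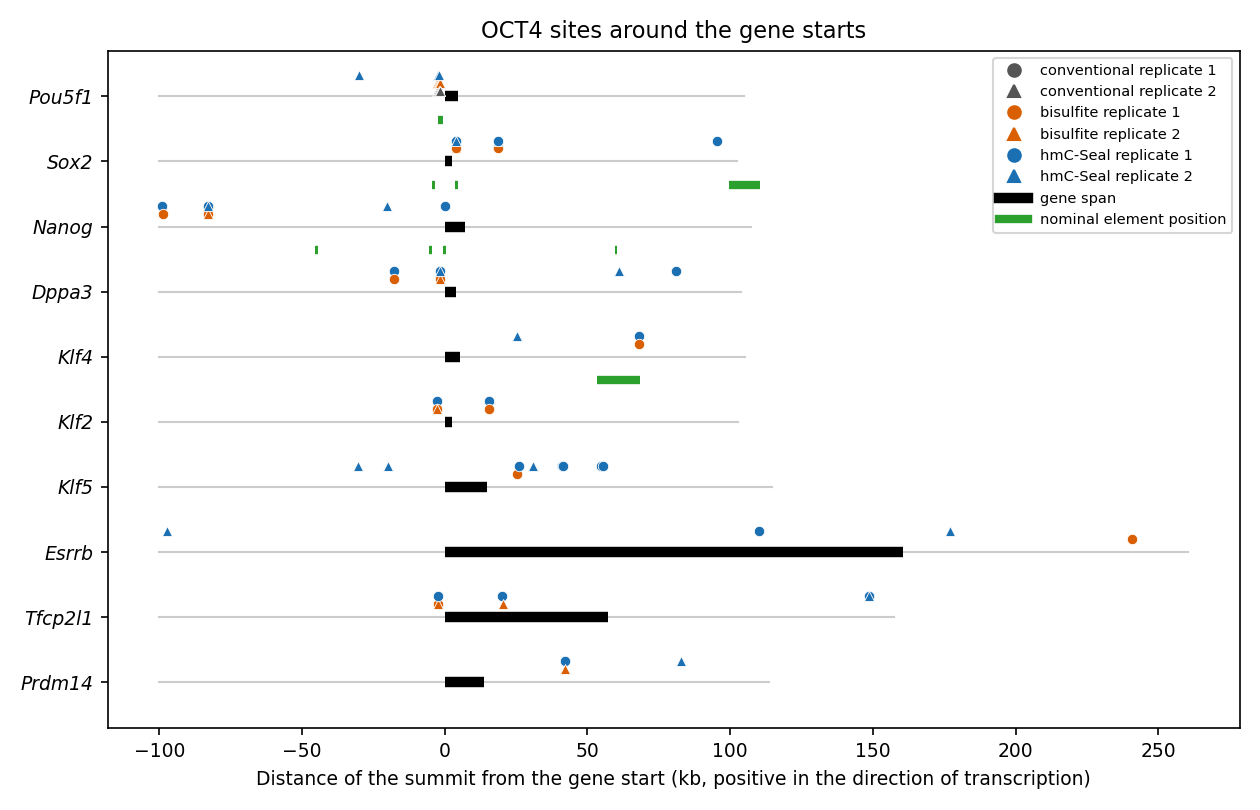
Distance in kb of each summit from the gene start, positive in the direction of transcription, for the 10 genes; circles are replicate 1 and triangles replicate 2, coloured by preparation, black bars are gene spans, thin grey lines the windows and green bars the nominal enhancer positions. Most shared places have a bisulfite and an hmC-Seal mark at the same distance, and the Klf5 marks do not line up.

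Of the 62 sites, 31 lay inside a gene span or within 5 kb of it and 31 farther away, 13 of these between 5 and 20 kb, 10 between 20 and 50 kb and 8 between 50 and 100 kb. Beyond 5 kb lay 0 and 0 conventional, 6 and 1 bisulfite and 13 and 11 hmC-Seal sites. Of the 31 distant sites 24 were hmC-Seal sites, 77.4%, close to the 74.4% of hmC-Seal among all 20955 sites of the study, while of the 31 near sites 11 were, 35.5%. Of those near sites 13 belong to Pou5f1, and without that locus 9 of 18 were hmC-Seal sites. The library bisulfite replicate 2 had 10 of its 11 sites within 5 kb. For Klf4, Klf5 and Prdm14 all sites were beyond 5 kb, and those genes appear only with the wider window.

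Sites of different libraries that overlapped by at least 1 bp were joined into stretches, which gave 32 stretches at the 10 loci. Of these, 13 were called in 2 or more libraries, 40.6%, where 15.1% of the 16032 stretches of the genome were. Stretches called in hmC-Seal replicate 2 alone make up 9990 of the 16032 and 9 of the 32, and without them the shares were 13 of 23, 56.5%, and 40.1% of 6042, a smaller contrast. The 13 belong to 8 of the 10 genes, all but Klf5 and Esrrb, and 20.8% of protein-coding genes have such a stretch in their window. Nanog and Dppa3 are both among the 8 through the same 2 stretches. Counted beyond 5 kb, 6 of 23 stretches were shared, and within 5 kb 7 of 9.

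Of the 13 shared stretches, 12 were called in a bisulfite and an hmC-Seal library, as were 64.0% of the 2422 shared stretches of the genome, and 2 of these 12, both at Pou5f1, in a conventional library as well. None of the 32 was called in all 6 libraries, and 0.374% of the stretches of the genome were, so 0 of 32 is at the background. The library hmC-Seal replicate 1 took part in 11 of the 13, each bisulfite library in 8, the other hmC-Seal library in 6 and conventional replicate 2 in 2. Without hmC-Seal replicate 1 the shared stretches fell to 7. Of the 13, 7 lay outside annotated gene spans, against 23 of all 32 stretches at the loci. For 10 of the 13 the nearest protein-coding gene was 1 of the 10 genes themselves, against 24 of the 32.

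The share of a library's sites that lay in a shared stretch differed between libraries. It was 6 of 6 at the loci in conventional replicate 2, against 93.2% of that whole list, 8 of 10 in bisulfite replicate 1, against 52.7%, and 11 of 11 in bisulfite replicate 2, against 73.5%. For hmC-Seal it was 12 of 20 with replicate 1, against 55.5%, near the background, and 6 of 15 with replicate 2, against 13.6%. Of the 9 sites of hmC-Seal replicate 2 that no other library called, 8 rested on 5 fragments or fewer. The 8 unshared sites of hmC-Seal replicate 1 rested on 8 to 21 fragments.

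**Figure D5:**
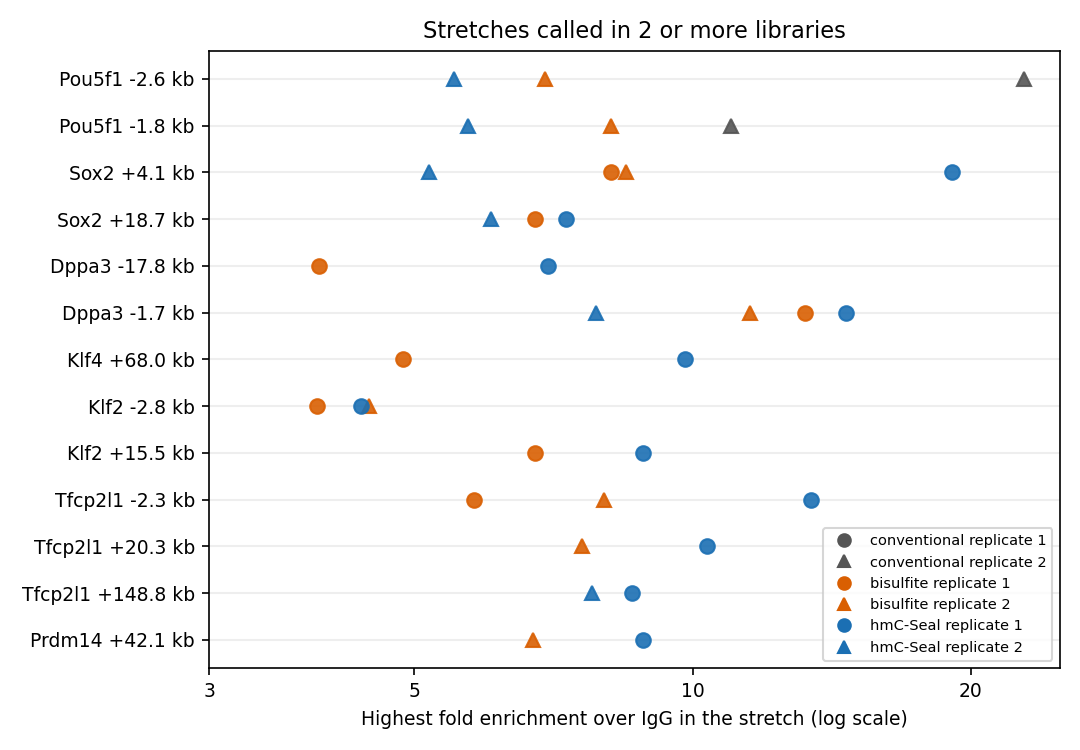
Highest fold enrichment over IgG (log scale) in each library that called 1 of the 13 shared stretches, named by gene and distance from the gene start; circles are replicate 1, triangles replicate 2, coloured by preparation. Grey marks appear only in the 2 rows of Pou5f1, and in 10 of the 11 rows with a mark of hmC-Seal replicate 1 that mark is the farthest right. The lists are not scaled to one another, so each mark describes its own library.

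Positions of 10 known regulatory elements, taken from general knowledge and rounded, were compared with the summits, with a tolerance of 1 kb, or of 3 kb for elements more than 10 kb from the start. Of the 10, 6 had a summit within tolerance. The share expected at other positions was not computed. The targets are also unequal, with the Sox2 control region and the Klf4 enhancers E1 to E3 the widest. The count therefore describes position only. The proximal and distal enhancers of Pou5f1, nominally 1.2 and 2 kb before the start, were both reached in the replicate 2 libraries only, and their tolerances overlap, so most sites count for both. The Sox2 regulatory region 2, nominally 4 kb after the start, was reached in both bisulfite and both hmC-Seal libraries, the Klf4 enhancers E1 to E3 in bisulfite replicate 1 and hmC-Seal replicate 1, and the Sox2 control region and the Nanog promoter element in hmC-Seal replicate 1. No library reached the Sox2 regulatory region 1, nominally 4 kb before the start, or the Nanog enhancers nominally 5 and 45 kb before and 60 kb after the start. A missing call does not show that OCT4 was absent from an element. Read totals are not in the lists, and sites in hmC-Seal replicate 2 rested on as few as 3 fragments.

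The fold enrichment of the sites at the 10 loci was close to that of their lists in some libraries and above it in others. In conventional replicate 2 the median was 9.07 at the loci and 6.64 in the whole list. It was 5.86 against 5.91 and 6.92 against 6.26 in the bisulfite libraries, and 8.01 against 6.97 and 4.32 against 4.32 in the hmC-Seal libraries. The lists are not scaled to one another, so these values describe each library on its own. The median rank of the sites, as a percentage of the list from its top, was 19.8% in conventional replicate 2, 63.0% and 31.6% for bisulfite and 46.4% and 32.0% for hmC-Seal. The sites of bisulfite replicate 1 were thus placed lowest in their list.

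Read totals are not in the lists, and the part of depth in these counts was not tested. The paper's sample table sets fewer target reads for the conventional OCT4 libraries than for the bisulfite and hmC-Seal ones. Its methods give the bisulfite libraries the same amount of DNA as the hmC-Seal libraries, above that of the conventional ones. The part of these differences was not tested either. By the fragment estimate the median site of a whole list rested on 14 and 12 fragments for conventional, 19 and 20 for bisulfite and 17 and 5 for hmC-Seal libraries. With sites of at least 5 fragments alone, hmC-Seal replicate 2 had 9 sites at the loci in place of 15, the other libraries were as before, and the difference between hmC-Seal and bisulfite was 4.0.

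A list of 9 other transcription factor genes of the network, Nr5a2, Nr0b1, Sall4, Tbx3, Stat3, Tcf7l1, Zfp281, Gbx2 and Mycn, gave 29 sites in the same kind of window. Of these, 1 and 0 were conventional, 4 and 3 bisulfite and 10 and 11 hmC-Seal sites. A site was found at 1 and 0 of these genes with conventional, 3 and 3 with bisulfite and 5 and 5 with hmC-Seal libraries, a smaller share than among the 10 core genes in both bisulfite and both hmC-Seal libraries. The share of these 9 genes was above that of all protein-coding genes in conventional replicate 1, both bisulfite libraries and hmC-Seal replicate 1, and below it in conventional replicate 2 and in hmC-Seal replicate 2, where 5 of 9 stand against 64.1%. Mycn, a proto-oncogene of the MYC family, had 11 of the 29, Sall4 had none, and Nr0b1, an orphan nuclear receptor, was the only one of the list with a conventional site, in replicate 1.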

How the data were processed

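OCT4 CUT&RUN was measured in 6 libraries, with 2 IgG samples as background. By the submitters' processing notes and the paper's methods, the authors trimmed reads with fastp 0.19.4, aligned conventional reads with Bowtie2 2.4.1 and the others with Bismark 0.22.3 to GRCm38, kept fragments of at most 120 bp, and called summits with MACS 2 in each library against IgG, without pooling replicates or spike-in calibration. In the deposited lists the authors' fold enrichment is a ratio at the summit over the local IgG background with a pseudocount of 1. The deposited −log10 p and −log10 q belong to the same summit, and the authors' score is 10 times −log10 q, rounded down.

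Gene spans came from the RefSeq table of GRCm38.p6; it lists no exons, and sites inside genes are not assigned to exon or intron. Strand came from the RefSeq promoter table or, for Dppa3, Klf5 and Prdm14, by symbol from GENCODE M1. The 10 genes, the network list and the element positions were chosen with earlier results of these data known. Of the network list, 9 genes are reported. Named in the text are every stretch at the 10 loci called in 2 or more libraries, each gene's site of highest −log10 q, sites at the nominal elements, and further sites chosen after their values were seen.

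Fragments were estimated as the whole number, at most 399, at which the caller's Poisson formula returns the listed values, with a tolerance of 0.02 of a fragment. This estimate was chosen after seeing the data and tested on data simulated from the same formulas. The simulated sites all had more than the 3 fragments of the smallest sites here, so that test speaks only to reversing the formulas. Of a library's sites, 70.9% to 88.2% received a single number. The lowest ratio of local to genome background from such a number was 0.0876, in bisulfite replicate 1. In every other library the lowest ratio was 1.00. The number of fragments behind 0.0876 thus stands apart, and whether it is right was not tested. Numbers of sites were compared by two-sided exact permutation tests. Conventional and bisulfite libraries of the same number share a pool in the paper's sample table. The counts per gene cannot check this pairing, since the conventional replicates differ at 1 gene only, Pou5f1. Alternatives were windows of 50 and 200 kb, summits only, joined summits, −log10 q of at least 3, lists of equal length, percentages, the replicate block and leaving out replicates. Chosen after seeing the data were a minimum of 5 fragments, leaving out Pou5f1, leaving out each library for the shared stretches and the genes with a site, percentages and equal length with joined summits, shared stretches without those of hmC-Seal replicate 2 alone, ATGCAA and the joint sequence. Counts and tests used Python 3.11.15 with pandas 2.3.3, numpy 2.4.6 and scipy 1.17.1, and figures matplotlib 3.10.9.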

Additional observations from a re-analysis of the deposited data

How the results depend on the processing

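Of 16 alternatives for each difference in the mean number of sites, 12 kept the direction and 4 reversed it for both hmC-Seal differences, and 13 and 3 did so for bisulfite minus conventional. With lists of equal length the differences were -2.5 for hmC-Seal minus conventional, -0.5 for bisulfite minus conventional and -2.0 for hmC-Seal minus bisulfite, and as percentages of each list -0.816, -0.689 and -0.127 percentage points. With summits of the same region joined, these were -0.5, 1.0 and -1.5 at equal length and -0.123, -0.0657 and -0.0572 percentage points. Equal length also left 3 genes with a bisulfite site, 1 with an hmC-Seal site and 3 shared stretches, and leaving out Pou5f1 left 0 genes with a conventional site; the cause was not tested. Leaving out each library in turn gave 11.5 to 17.5, 4.5 to 10.5 and 4.5 to 9.5 for the 3 differences in the same order, 0 to 1 genes with a conventional site and 7 to 13 shared stretches, the lowest without hmC-Seal replicate 1. Without conventional replicate 1, bisulfite minus conventional was 4.5, and without hmC-Seal replicate 1, hmC-Seal minus bisulfite was 4.5. The last was also 4.5 at −log10 q of at least 3 and 4.0 with at least 5 fragments, where the libraries overlapped, and 12 with 200 kb. With the replicate block the paired differences were 14.5, 7.5 and 7.0 (exact permutation within pairs, p = 0.5, the smallest possible), and no call changed. For hmC-Seal only the number is shared; its deviations from the group means correlated with those of bisulfite with r = 0.652 over the 10 genes, which rests on Pou5f1, without which r was -0.283, and conventional deviated at that gene alone. With 2 libraries a group no p-value speaks to stability. A site of hmC-Seal replicate 2 rests on a median of 5 fragments, which bounds its precision.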
